A study of Mus musculus with 24 samples.

Results

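The 44 genes described here encode the Wnt ligands, their Frizzled receptors and Lrp co-receptors, the secreted Wnt antagonists, and a small set of intracellular components and DNA-binding partners. They were taken by name from the protein-coding genes of GENCODE M1, of which there are 22380, and all 44 matched a gene on the mm9 build. The set holds 19 Wnt ligands, 10 Frizzleds, 2 co-receptors, 8 secreted antagonists, 3 intracellular components and 2 DNA-binding partners. The genes were set by name, with no threshold on their values.

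Non-ribosomal RNA was sequenced from a mouse embryonic stem cell line and from a fetal tissue. CCE cells are feeder-independent ES cells of strain 129/SvEv that were differentiated for 5 days without LIF and with 0.266 µM retinoic acid (RA), and FH is the head of FVB/N fetuses at 14.5 dpc. The tissues thus differ in strain, in culture and in RA exposure, and these cannot be told apart from the tissue. RNA was depleted with RiboMinus, and 4 CCE and 3 FH cDNA preparations were each sequenced at Vienna-IMP and at Nijmegen, giving 14 libraries. CCE1 and CCE2 were each fragmented by cDNA shearing and by RNA hydrolysis after 1 round of depletion. FH1 was handled in both ways after 1 round, and FH2 was hydrolysed after 2 rounds. The CCE preparations are technical replicates and no separate animals are stated for FH, so that p values measure the spread between preparations. Both tissues were also depleted once with Ribo-Zero, a different kit, from separate RNA, with hydrolysis and 1 library per tissue. These libraries were sequenced at a further Vienna facility, CeMM, on another instrument and with longer reads. In hydrolysed preparations the log2 ratio of RNA number 1 to 2 at Vienna-IMP and at Nijmegen correlated across genes at r = -0.644 in CCE and -0.496 in FH, so that these numbers are uncertain, and values named CCE1, CCE2, FH1 or FH2 hydrolysed may mix both RNAs. Tags of both locations were summed, which gave 1888761 to 4322418 tags per preparation, against 26345467 and 46226046 tags in the Ribo-Zero libraries. Expression is given as RPKM, the tags in the exons of a gene per kb of exon, scaled to library size in the usual RPKM unit. The order of different genes, and their shares of a summed level, also depended on the preparation. Dkk2 and Axin1 measured 26.1 and 8.63 RPKM in CCE1 hydrolysed, and 2.19 and 23.0 RPKM in the CCE Ribo-Zero library. In a bulk sample, fewer cells of a type and less RNA per cell cannot be told apart.

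Wnt proteins are secreted lipid-modified ligands that bind a Frizzled, a receptor that spans the membrane several times, and an Lrp co-receptor. In the canonical branch this frees beta-catenin from a destruction complex built on Axin, so that beta-catenin enters the nucleus and acts with Lef and Tcf proteins, while other branches steer cell polarity and movement. Wnt signals pattern the neural tube, the face and the limbs and act in early germ layers, and secreted Frizzled-related proteins and Dickkopf proteins hold them back outside the cell.

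Marker genes of the tissues are described next. Their lists were chosen with earlier results of these data known, so that they are no independent check. The 3 pluripotency markers Pou5f1, Nanog and Zfp42 were lower in FH, with a summed level of 30.6 to 33.4 RPKM in CCE and 0 to 0.103 in FH. Of 8 markers of primitive and parietal endoderm 7 were lower in FH, at 244 to 307 RPKM in CCE and 74.5 to 89.3 in FH, and the 3 smooth muscle markers Acta2, Tagln and Cnn1 were lower in FH, at 2106 to 2542 RPKM in CCE and 39.1 to 64.9 in FH. Of 7 neural markers 6 were higher in FH, at 43.5 to 51.5 RPKM in CCE and 362 to 609 in FH. All 4 skeletal, 3 muscle and 2 epidermal markers and 3 of 4 blood and vessel markers were also higher in FH. With Ribo-Zero the neural sum was 60.7 RPKM in CCE. Of the 6 neural markers, Sox2 ran the other way there, at 46.5 RPKM in CCE and 22.5 in FH. Tubb3, Stmn2, Dcx, Map2 and Neurod1 were higher in FH with both kits. Myod1, Myog, Myh3 and Krt5 were at 0 in all CCE preparations, and Pou5f1, Zfp42 and Gata4 were at 0 in all FH preparations. The part of these cell types in the differences of the 44 genes was not tested. In CCE the Ribo-Zero library stood apart from the RiboMinus preparations, with 129 RPKM for the smooth muscle markers, 623 for the endoderm markers and 70.2 for the pluripotency markers. In FH it also stood apart, with 171 RPKM for the endoderm markers, 208 for the neural markers and 51.7 for the epidermal markers, the last against 91.8 to 142 with RiboMinus.

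Frizzleds carry in the cytoplasmic tail the short motif KTXXXW, which binds Dishevelled, the protein that passes the signal on. The coding sequence around this motif is shown for 9 Frizzleds to let the genes be told apart. The base composition set beside sequencing results further on is that of whole exons, which these stretches need not follow. G and C made up 50% of the stretch in Fzd6 and Fzd9 and 46.7% in Fzd4. Each stretch is 60 coding bases of the GENCODE M1 transcript, 5′ to 3′, in mm9 coordinates, with the codons of the motif in capitals.
Fzd1, chr5:4755685-4755744, minus strand: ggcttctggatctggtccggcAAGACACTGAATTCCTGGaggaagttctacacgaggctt
Fzd2, chr11:102467666-102467725, plus strand: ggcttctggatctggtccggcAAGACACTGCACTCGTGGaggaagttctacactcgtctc
Fzd7, chr1:59541430-59541489, plus strand: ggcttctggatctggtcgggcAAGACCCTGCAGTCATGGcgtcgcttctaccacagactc
Fzd4, chr7:96556730-96556789, plus strand: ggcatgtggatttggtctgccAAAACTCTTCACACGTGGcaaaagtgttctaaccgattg
Fzd9, chr5:135725265-135725324, minus strand: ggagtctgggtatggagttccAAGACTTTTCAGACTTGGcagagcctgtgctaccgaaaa
Fzd10, chr5:129108650-129108709, plus strand: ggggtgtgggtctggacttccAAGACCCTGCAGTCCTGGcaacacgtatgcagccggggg
Fzd5, chr1:64781564-64781623, minus strand: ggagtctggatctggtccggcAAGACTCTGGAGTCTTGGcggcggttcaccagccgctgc
Fzd3, chr14:65830923-65830982, minus strand: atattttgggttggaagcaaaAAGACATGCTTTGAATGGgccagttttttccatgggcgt
Fzd6, chr15:38865474-38865533, plus strand: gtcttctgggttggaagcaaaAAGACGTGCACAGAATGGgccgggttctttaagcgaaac

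Position by position, Fzd1 and Fzd2 held the same base at 53 of 60 positions, Fzd2 and Fzd7 at 46, Fzd3 and Fzd6 at 42 and Fzd9 and Fzd10 at 40. Fzd3 shared 20 to 27 with each of the 7 others and Fzd6 22 to 29. The third codon positions of the whole coding region were 47.7% G or C in Fzd3 and 52.0% in Fzd6, against 63.8% in Fzd4 and 75.7 to 85.1% in the other 7 Frizzleds. Fzd1, Fzd2, Fzd7, Fzd8, Fzd9 and Fzd10 lie in a single exon, so that they have no intron to read.

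In FH, 7 of the 44 genes were higher and 15 were lower than in CCE. The higher genes were Wnt5a, Wnt7b, Fzd3, Fzd9, Fzd10, Sfrp2 and Frzb, and the lower ones were Wnt2b, Wnt3, Wnt6, Wnt9a, Wnt11, Fzd2, Fzd4, Fzd6, Fzd7, Sfrp1, Sfrp5, Dkk1, Dkk2, Ctnnb1 and Tcf7. Differences are FH minus CCE on the log2(RPKM + 1) scale, fitted with limma over the 10306 protein-coding genes that averaged more than 3 RPKM in CCE or FH, and a gene was called at an adjusted p under 0.05. Of the 44 genes 32 passed this filter and 12 did not. Among the called genes Wnt5a, Wnt7b, Fzd9, Sfrp2 and Frzb passed it only through FH, and Wnt2b and Dkk1 only through CCE. A call in the other direction was hardly possible for these. Over all genes tested 19.9% were higher and 34.8% lower in FH, and over the 32 genes these shares were 21.9% and 46.9%. The median difference was -0.26 over the 32 genes and -0.34 over all genes tested. Of the 22 called genes 19 had values that did not overlap between the tissues, and Wnt6, Fzd2 and Fzd3 overlapped. That is 86.4% of the called genes, against 94.6% of the 5638 genes called over the whole table, and 56.2% of all genes tested did not overlap. The balance depended on the scale, since a median-of-ratios scaling moved the median of all genes by 0.25 and gave 8 higher and 11 lower of the 44 genes. Of the 10444 genes tested with this scaling 2565 were higher and 2542 lower. Scaling by exon tags moved the median by 0.35 and gave 11 higher and 10 lower of the 44 genes, of which 33 were tested. Of the 10456 genes tested with it 2840 were higher and 2138 lower. Higher genes then were 57.1% of all genes called in place of 36.5%. None of the 22 called genes changed direction under any of the 23 alternatives in which it was tested, and all were tested in every one except Frzb, which was tested in 20.

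Among the ligands, Wnt7b and Wnt5a rose and Wnt9a fell the most. Values are listed in the order CCE1 sheared, CCE2 sheared, CCE1 hydrolysed and CCE2 hydrolysed, followed by FH1 sheared, FH1 hydrolysed and FH2 hydrolysed. Wnt7b, a ligand of the developing forebrain and its vessels at chromosome 15, bases 85365869 to 85412251, measured 1.75, 1.26, 1.31 and 0.740 RPKM in CCE and 21.8, 11.1 and 12.4 RPKM in FH. All FH values lay above all CCE values, and the difference was 2.79 ± 0.26 (SE, limma adjusted p = 2.94e-05). Wnt5a, the main ligand of the polarity branch and needed for outgrowth of the face, at chromosome 14, bases 29317936 to 29340633, measured 1.28, 1.98, 1.41 and 2.16 RPKM in CCE and 6.36, 5.71 and 6.06 RPKM in FH. The FH preparations were close to each other and above every CCE preparation, with a difference of 1.39 ± 0.18 (SE, limma adjusted p = 1.91e-04). Both genes share exon bases with a gene on the other strand, and the tags carry no strand. With exon bases of other genes left out, the difference was 2.81 (adjusted p = 3.08e-05) for Wnt7b and 1.39 (adjusted p = 1.93e-04) for Wnt5a.

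**Figure D1:**
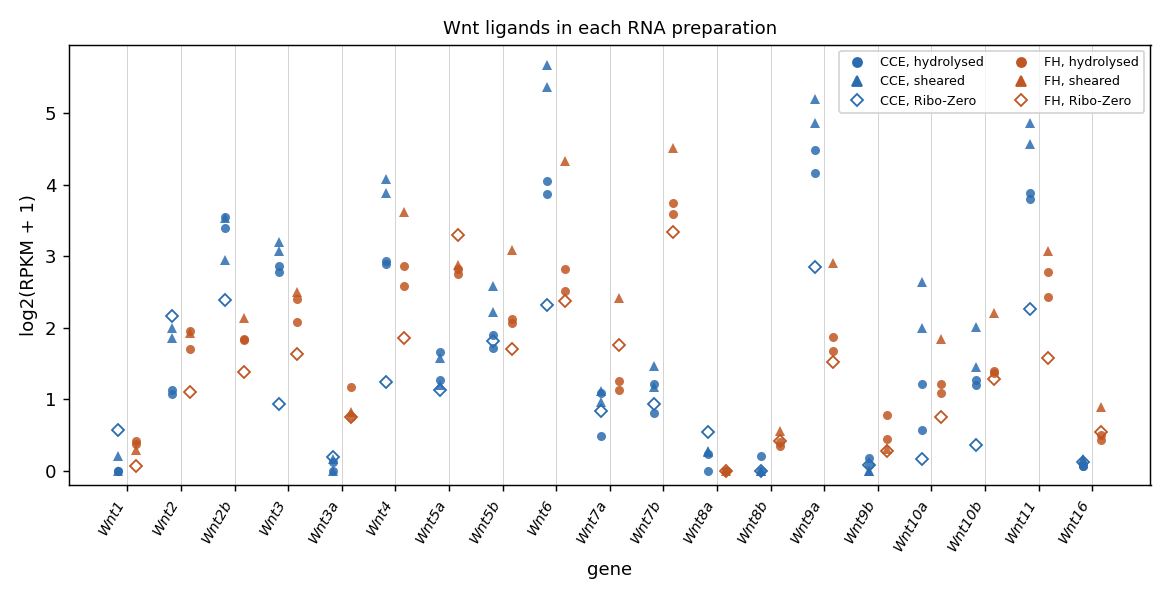
RPKM of the 19 Wnt ligands on a log2(RPKM + 1) axis, 1 point per preparation, with CCE in blue, FH in orange, hydrolysed preparations as circles, sheared ones as triangles and Ribo-Zero libraries as open diamonds. Wnt7b and Wnt5a lie higher in FH, Wnt9a and Wnt2b lie higher in CCE, and the CCE Ribo-Zero diamonds of Wnt3, Wnt4, Wnt6 and Wnt11 lie below the CCE RiboMinus points.

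Wnt9a, a ligand known from joint formation, at chromosome 11, bases 59120430 to 59147054, measured 35.9, 28.2, 21.4 and 17.0 RPKM in CCE and 6.52, 2.18 and 2.64 RPKM in FH. Every CCE preparation was above every FH preparation, and the difference was -2.53 ± 0.35 (SE, limma adjusted p = 3.21e-04). Wnt11, a ligand of the polarity branch that acts in gastrulation and in the heart and kidney, measured 28.1, 22.8, 13.7 and 12.9 RPKM in CCE and 7.43, 4.37 and 5.86 RPKM in FH. The groups did not overlap and differed by -1.52 ± 0.30 (SE, limma adjusted p = 0.00254), and Wnt11 too shares exon bases with a gene on the other strand. With these left out its difference was -1.53 (adjusted p = 0.00253). Wnt2b, a canonical ligand of the eye margin and other borders, measured 6.75, 10.6, 10.7 and 9.48 RPKM in CCE and 3.41, 2.56 and 2.59 RPKM in FH. Here the lowest CCE value came from a sheared preparation, and still lay above all of FH, with a difference of -1.42 ± 0.20 (SE, limma adjusted p = 4.07e-04).

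Wnt3 and Wnt6 fell by a small margin or with a wide spread. Wnt3, which is needed to form the primitive streak, measured 8.16, 7.45, 6.27 and 5.89 RPKM in CCE and 4.65, 3.24 and 4.29 RPKM in FH. The groups lay close but apart, at -0.65 ± 0.19 (SE, limma adjusted p = 0.0165), and the call was lost with either other scaling, with coding exons alone and with Nijmegen libraries alone. The call was lost when 1 preparation was left out, at -0.53 (adjusted p = 0.0764) without FH1 hydrolysed. Wnt6, an epithelial ligand, measured 40.2, 50.2, 15.6 and 13.6 RPKM in CCE and 19.2, 4.69 and 6.04 RPKM in FH. The sheared FH value exceeded both hydrolysed CCE values, so that the tissues overlapped, at -1.52 ± 0.56 (SE, limma adjusted p = 0.0453), while with fragmentation as a covariate the difference was -1.26 (adjusted p = 2.27e-05). The call was lost when 1 preparation was left out, at -1.32 (adjusted p = 0.119) without CCE1 sheared, -1.21 (adjusted p = 0.0965) without CCE2 sheared, -1.17 (adjusted p = 0.152) without FH1 hydrolysed and -1.32 (adjusted p = 0.136) without FH2 hydrolysed. With the replicate block, which pairs preparations by RNA number, it was -1.56 (adjusted p = 0.0639). The call was also lost with no filter, with either other scaling, with coding exons alone and with Nijmegen libraries alone.

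Wnt4 and Wnt5b were not called. Wnt4, a ligand of kidney and gonad, measured 13.7, 15.9, 6.63 and 6.45 RPKM in CCE and 11.2, 5.01 and 6.29 RPKM in FH. The tissues overlapped and differed by -0.42 ± 0.37 (SE, limma adjusted p = 0.353). Wnt5b, a relative of Wnt5a, measured 4.97, 3.66, 2.29 and 2.72 RPKM in CCE and 7.46, 3.18 and 3.35 RPKM in FH, and its difference of 0.32 ± 0.30 (SE, limma adjusted p = 0.399) was 0.44 (adjusted p = 0.0245) with fragmentation as a covariate. Without FH1 sheared its sign turned, at -0.01 (adjusted p = 0.974). The summed level of the 19 ligands ran from 75.5 to 153 RPKM in CCE and from 51.1 to 104 RPKM in FH, which overlap. Within that sum the composition differed. Wnt6, Wnt9a and Wnt11 held 18.1 to 32.8%, 18.4 to 25.6% and 14.9 to 18.6% of it in CCE preparations and 9.18 to 18.5%, 4.28 to 6.27% and 7.15 to 9.96% in FH. Wnt7b held 0.820 to 1.56% in CCE and 21.0 to 21.7% in FH, where it led the ligands in each preparation. With Ribo-Zero Wnt6, Wnt9a and Wnt11 held 12.9%, 19.9% and 12.3% in CCE, and in FH Wnt7b held 21.8% and Wnt5a 21.0%, against 6.12 to 11.2% for Wnt5a with RiboMinus.

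The other 10 ligands stayed at or below a mean of 3 RPKM in both tissues and were not in the fit. For these the exact two-sided permutation test of 4 against 3 preparations can go no lower than p = 0.0571. By the RPKM of the pooled tags of a tissue the highest were Wnt2, Wnt10a and Wnt10b. Wnt2, a ligand of lung and vessels, measured 2.97, 2.62, 1.11 and 1.19 RPKM in CCE and 2.82, 2.87 and 2.26 RPKM in FH, and the tissues overlapped (exact permutation p = 0.4). Wnt10a, known from teeth and hair, measured 2.98, 5.24, 1.32 and 0.481 RPKM in CCE and 2.57, 1.31 and 1.12 RPKM in FH, with an exact permutation p of 0.629. Wnt10b, a ligand of fat and bone, measured 3.01, 1.74, 1.29 and 1.40 RPKM in CCE and 3.63, 1.62 and 1.59 RPKM in FH, with an exact permutation p of 0.457. In both Wnt10 genes the sheared preparations were above the hydrolysed ones of the same tissue. Wnt3a, Wnt8b, Wnt9b and Wnt16 did not overlap and lay higher in FH, on 2, 2, 3 and 6 tags over the 4 CCE preparations and 26, 11, 22 and 29 tags over the 3 FH preparations. Wnt1 had 1 tag in CCE and 7 in FH, and Wnt7a 36 and 59. Both were also apart, Wnt7a by a narrow gap, at 0.395 to 1.17 RPKM in CCE and 1.19 to 4.34 in FH. All 6 of these ligands reached the smallest exact permutation p of 0.0571, as any gene without overlap does. In limma with no filter the adjusted p was 0.237 for Wnt7a and 0.00281 to 0.0377 for the others. These p values measure the spread between preparations and do not cover counting error, which is large where tags are so few. Of all 7418 genes below the filter that had a tag, 32.1% did not overlap between the tissues. Wnt8a had 3 tags in CCE and none in FH. With no filter on low values, a fit over 22380 genes called 11 of the 44 genes higher and 12 lower in FH, where 15.0% and 15.0% of all genes were called. The 22380 genes include genes without a tag, which cannot be called, while all of the 44 genes had tags. The shares over all genes are therefore low as a background.

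Several ligand genes lie side by side in pairs with no protein-coding gene between them. Wnt6 and Wnt10a are 6.20 kb apart on chromosome 1, Wnt3a and Wnt9a 16.2 kb apart and Wnt9b and Wnt3 24.3 kb apart on chromosome 11, and Wnt10b and Wnt1 11.7 kb apart on chromosome 15. Partners were at different levels in CCE. Wnt9a averaged 25.6 ± 8.27 RPKM (SD, n = 4) beside 0.0530 ± 0.0625 for Wnt3a, and Wnt3 6.94 ± 1.05 beside 0.0467 ± 0.0623 for Wnt9b. Wnt6 averaged 29.9 ± 18.1 RPKM beside 2.51 ± 2.10 for Wnt10a. In FH the means were 3.78 ± 2.38 for Wnt9a and 0.902 ± 0.310 for Wnt3a (SD, n = 3), and 4.06 ± 0.732 for Wnt3 and 0.436 ± 0.251 for Wnt9b.

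Of the 9 Frizzleds tested 3 were higher and 4 lower in FH, which is 33.3% and 44.4% against 19.9% and 34.8% of all genes tested, and Fzd1 and Fzd8 were not called. Fzd7, a receptor of stem cells and early germ layers at chromosome 1, bases 59538991 to 59543791, measured 67.2, 83.3, 43.7 and 39.7 RPKM in CCE and 16.3, 7.74 and 7.71 RPKM in FH. Every CCE value was more than double every FH value, and the difference was -2.38 ± 0.34 (SE, limma adjusted p = 3.94e-04). Fzd2, at chromosome 11, bases 102465745 to 102469372, measured 131, 144, 54.3 and 48.6 RPKM in CCE and 55.3, 18.3 and 21.7 RPKM in FH. The sheared FH value lay above both hydrolysed CCE values, but within each fragmentation method CCE was higher, with a difference of -1.54 ± 0.50 (SE, limma adjusted p = 0.0266) and of -1.31 (adjusted p = 5.90e-06) with fragmentation as a covariate. The call was lost when 1 preparation was left out, at -1.33 (adjusted p = 0.0764) without CCE1 sheared, -1.29 (adjusted p = 0.0583) without CCE2 sheared, -1.25 (adjusted p = 0.0969) without FH1 hydrolysed and -1.37 (adjusted p = 0.0906) without FH2 hydrolysed. The call was also lost with either other scaling and with no filter.

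Fzd4, the receptor of retinal and brain vessels, measured 31.9, 35.5, 29.4 and 31.6 RPKM in CCE and 13.2, 12.3 and 11.2 RPKM in FH. Its values were tight within each tissue and apart, at -1.32 ± 0.16 (SE, limma adjusted p = 1.35e-04). Fzd6, which orients hair follicles, measured 12.5, 7.79, 13.3 and 13.1 RPKM in CCE and 3.76, 6.66 and 5.95 RPKM in FH. The lowest CCE value, from CCE2 sheared, was still above FH, and the difference was -0.97 ± 0.25 (SE, limma adjusted p = 0.00952). Scaled by exon tags it was -0.66 (adjusted p = 0.0691).

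**Figure D2:**
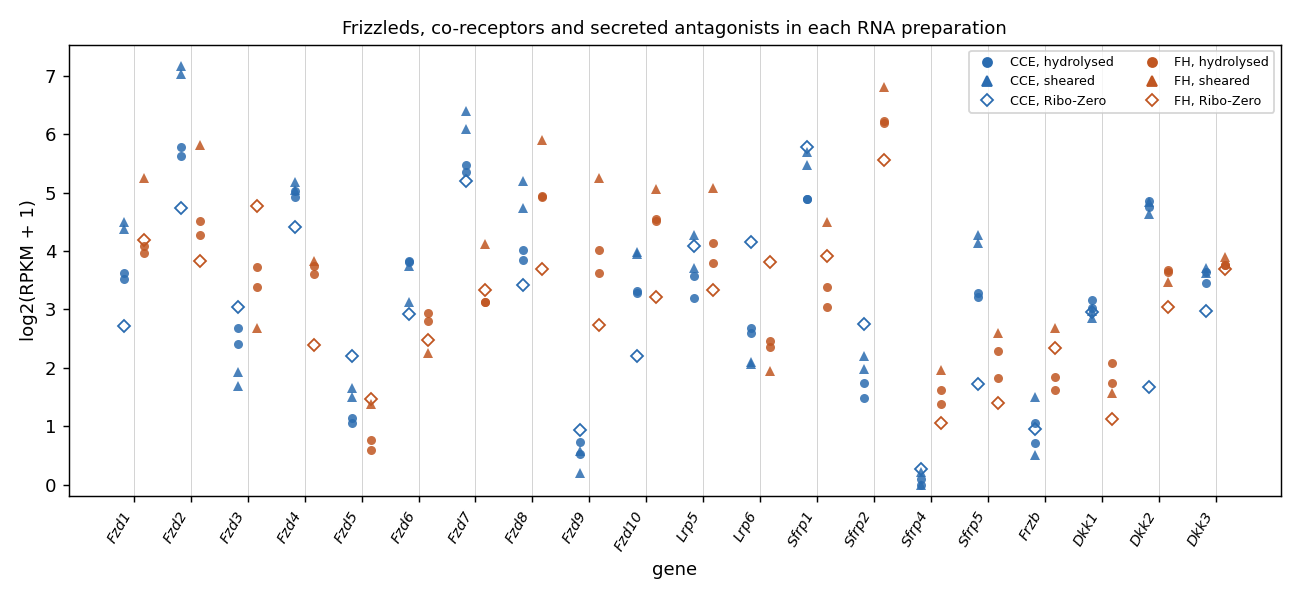
RPKM of the 10 Frizzleds, 2 co-receptors and 8 secreted antagonists on a log2(RPKM + 1) axis, 1 point per preparation, with the colours and symbols of the ligand plot. Fzd2, Fzd4 and Fzd7 lie higher in CCE, Fzd9, Fzd10 and Sfrp2 lie higher in FH, and sheared points lie above hydrolysed ones for Fzd1, Fzd2, Fzd7 and Fzd8 and below them for Fzd3 and Lrp6.

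Fzd9, a receptor of the hippocampus and bone at chromosome 5, bases 135724808 to 135727100, measured 0.146, 0.484, 0.437 and 0.648 RPKM in CCE and 37.2, 11.3 and 15.2 RPKM in FH. It was near 0 in CCE, on 13 tags over 4 preparations, and the difference was 3.80 ± 0.36 (SE, limma adjusted p = 3.08e-05). Fzd10, at chromosome 5, bases 129106719 to 129109968, measured 14.8, 14.4, 8.94 and 8.77 RPKM in CCE and 32.3, 22.4 and 22.0 RPKM in FH. All FH values were above CCE, at 1.07 ± 0.25 (SE, limma adjusted p = 0.00605). Most exon bases of Fzd10 also belong to a second annotation record of the same name, and on the 820 bases of its own alone the call was lost, at 1.31 (adjusted p = 0.14). With Nijmegen libraries alone it was 0.91 (adjusted p = 0.118). Fzd3, a receptor needed for axon tracts, measured 2.22, 2.80, 4.33 and 5.41 RPKM in CCE and 5.39, 12.2 and 9.41 RPKM in FH. The sheared FH value lay between the hydrolysed CCE values, with a difference of 1.08 ± 0.32 (SE, limma adjusted p = 0.018) and of 0.95 (adjusted p = 2.60e-04) with fragmentation as a covariate. The call was lost when 1 preparation was left out, at 0.85 (adjusted p = 0.0725) without FH1 hydrolysed and 1.02 (adjusted p = 0.0616) without FH2 hydrolysed. The call was also lost with no filter.

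Fzd1 and Fzd8 overlapped between the tissues and were not called. Fzd1 measured 19.9, 21.5, 11.3 and 10.5 RPKM in CCE and 36.9, 14.7 and 16.0 RPKM in FH, a difference of 0.43 ± 0.37 (SE, limma adjusted p = 0.35), which with fragmentation as a covariate was 0.60 (adjusted p = 0.00149). Fzd8 measured 25.8, 35.6, 15.3 and 13.4 RPKM in CCE and 59.2, 29.4 and 29.7 RPKM in FH, a difference of 0.81 ± 0.38 (SE, limma adjusted p = 0.0999) and of 0.97 (adjusted p = 1.13e-04) with the covariate. Fzd8 was called higher when CCE2 sheared was left out, at 1.05 (adjusted p = 0.0326), and was 0.48 (adjusted p = 0.306) without FH1 sheared and 0.60 (adjusted p = 0.213) without CCE2 hydrolysed. Without FH1 sheared Fzd1 was 0.03 (adjusted p = 0.953). In both genes FH was higher than CCE within each fragmentation method. Fzd5, below the filter, measured 2.13, 1.82, 1.20 and 1.07 RPKM in CCE and 1.61, 0.506 and 0.703 RPKM in FH (exact permutation p = 0.171). Of the summed Frizzled level, Fzd2 and Fzd7 held 28.1 to 42.5% and 21.9 to 24.0% in CCE and 13.5 to 21.2% and 5.52 to 6.25% in FH, and Fzd8 held 7.76 to 10.2% in CCE and 21.2 to 22.7% in FH. In the Ribo-Zero libraries Fzd2, Fzd7 and Fzd8 held 21.6%, 30.1% and 8.17% in CCE and 12.9%, 8.89% and 11.6% in FH, where Fzd3 led at 25.7% against 2.06 to 8.98% with RiboMinus. The co-receptors Lrp5 and Lrp6 were not called. Lrp5, known from bone mass and eye vessels, measured 12.0, 18.3, 10.9 and 8.21 RPKM in CCE and 32.8, 12.8 and 16.6 RPKM in FH, a difference of 0.64 ± 0.35 (SE, limma adjusted p = 0.143) and of 0.78 (adjusted p = 0.0043) with the covariate, and it was 0.27 (adjusted p = 0.47) without FH1 sheared. Lrp6, its close relative, measured 3.20, 3.27, 5.38 and 5.02 RPKM in CCE and 2.86, 4.11 and 4.50 RPKM in FH, with the tissues interleaved at -0.10 ± 0.23 (SE, limma adjusted p = 0.716). The sign for Lrp6 turned with either other scaling.

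Of the secreted antagonists Sfrp2 and Frzb were higher in FH, and Sfrp1, Sfrp5, Dkk1 and Dkk2 were lower. Sfrp2, a secreted Frizzled-related protein of neural and facial mesenchyme at chromosome 3, bases 83570243 to 83578238, measured 2.96, 3.61, 2.33 and 1.79 RPKM in CCE and 112, 72.3 and 73.7 RPKM in FH. FH was 32.2 times CCE by the means of 85.9 ± 22.3 and 2.67 ± 0.784 RPKM (SD, n = 3 and 4), and the difference was 4.56 ± 0.24 (SE, limma adjusted p = 1.23e-06). It held 62.3 to 64.7% of the summed antagonist level in FH and 2.08 to 3.31% in CCE, and with Ribo-Zero 52.8% and 7.19%. Sfrp2 shares exon bases with a gene on the other strand. Sfrp1, its relative at chromosome 8, bases 24521974 to 24560104, ran the other way with 50.6, 43.5, 28.6 and 28.8 RPKM in CCE and 21.7, 7.21 and 9.47 RPKM in FH. The tissues did not overlap, and the difference was -1.59 ± 0.36 (SE, limma adjusted p = 0.00543), which on coding exons alone was -1.48 (adjusted p = 0.0789).

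Sfrp5, which acts in the early endoderm, measured 16.6, 18.3, 8.70 and 8.29 RPKM in CCE and 5.02, 2.55 and 3.90 RPKM in FH. CCE was above FH throughout, at -1.49 ± 0.32 (SE, limma adjusted p = 0.00404). Frzb, a Frizzled-related protein of cartilage, measured 0.414, 1.83, 1.08 and 0.642 RPKM in CCE and 5.40, 2.58 and 2.07 RPKM in FH. Its 3 FH values lay above CCE on 41 and 93 tags, at 1.10 ± 0.31 (SE, limma adjusted p = 0.0153). With no filter the call was lost, at an adjusted p of 0.0685, and without FH1 sheared Frzb was below the filter. Sfrp4, below the filter, had 3 tags over the 4 CCE preparations and 81 over the 3 FH preparations, with 2.88, 2.06 and 1.60 RPKM in FH (exact permutation p = 0.0571).

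Dkk1, which binds Lrp5 and Lrp6 and is needed to form the head, measured 6.21, 6.85, 7.95 and 7.10 RPKM in CCE and 1.96, 2.33 and 3.24 RPKM in FH. All CCE values were above FH, at -1.20 ± 0.18 (SE, limma adjusted p = 6.03e-04). Dkk2, a relative with a role in the eye and in bone, measured 27.7, 23.7, 26.1 and 27.9 RPKM in CCE and 10.0, 11.4 and 11.8 RPKM in FH. Values were tight in both tissues and apart, at -1.18 ± 0.16 (SE, limma adjusted p = 2.68e-04). Dkk3, a divergent relative, measured 12.1, 11.3, 10.0 and 11.4 RPKM in CCE and 13.9, 12.6 and 12.5 RPKM in FH. The tissues were apart by a narrow gap, and the difference was 0.20 ± 0.16 (SE, limma adjusted p = 0.301). Scaled by exon tags Dkk3 was called higher, at 0.53 (adjusted p = 0.0187), and on coding exons alone its sign turned, at -0.02 (adjusted p = 0.961).

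Of the intracellular genes Ctnnb1 was lower in FH. Ctnnb1, which encodes beta-catenin and was the most abundant of the 44 genes, measured 413, 312, 287 and 298 RPKM in CCE and 229, 189.5 and 208 RPKM in FH. The groups did not overlap and differed by -0.64 ± 0.21 (SE, limma adjusted p = 0.0276), and the call was lost under 9 of 23 alternatives, among them both other scalings. The call was lost when 1 preparation was left out, at -0.57 (adjusted p = 0.109) without FH1 hydrolysed and -0.63 (adjusted p = 0.0871) without FH2 hydrolysed. Axin1, the scaffold of the destruction complex, measured 9.53, 8.98, 8.63 and 7.68 RPKM in CCE and 9.40, 8.37 and 7.97 RPKM in FH, a difference of -0.02 ± 0.16 (SE, limma adjusted p = 0.934). Axin2, a feedback target of the canonical branch, measured 4.50, 4.83, 4.69 and 4.96 RPKM in CCE and 6.54, 4.89 and 4.79 RPKM in FH, a difference of 0.15 ± 0.17 (SE, limma adjusted p = 0.48). Neither was called, and the sign for Axin1 turned with either other scaling. Ctnnb1 and Axin2 each share exon bases with a gene on the other strand.

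The DNA-binding partners were Tcf7 and Lef1, which bind DNA at canonical targets together with beta-catenin. Tcf7 measured 7.08, 11.8, 12.2 and 11.7 RPKM in CCE and 3.80, 2.80 and 4.39 RPKM in FH. The lowest CCE value, from CCE1 sheared, was above all of FH, and the difference was -1.31 ± 0.23 (SE, limma adjusted p = 0.00134). Lef1 measured 1.47, 2.48, 1.79 and 1.82 RPKM in CCE and 4.47, 2.86 and 2.41 RPKM in FH, a difference of 0.54 ± 0.21 (SE, limma adjusted p = 0.0556), which was called in 7 alternatives, with fragmentation as a covariate at 0.58 (adjusted p = 0.0138). It was called without CCE2 sheared, at 0.63 (adjusted p = 0.0385), and without FH2 hydrolysed, at 0.68 (adjusted p = 0.0451).

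The wider pathway was read from 62 other genes of Wnt signalling, of which 51 were tested, 18 were higher and 13 lower in FH. These are 35.3% and 25.5% of the 51 genes, against 19.9% and 34.8% of all genes tested. The 13 became 7 with either other scaling and 7 without FH1 hydrolysed, and 19 with fragmentation as a covariate. Of 8 other secreted or membrane inhibitors 5 were tested and all 5 were higher in FH. Wif1, Kremen2, Sostdc1 and Apcdd1 averaged under 3 RPKM in CCE and passed the filter only through FH. A lower call was hardly possible for them. The same held for Rspo1, Apc2, Nkd2, Tcf7l2, Pygo1, Tle2, Celsr2 and Celsr3 among the other pathway genes called higher. Notum and Cdx1, called lower, passed it only through CCE. With Ribo-Zero Wif1, Kremen2, Sostdc1 and Apcdd1 were higher in FH too, while Kremen1 was not, at 4.63 RPKM in CCE and 3.99 in FH. None of the 3 genes of ligand release was higher, while 2 were lower. Of the 7 polarity genes 4 were higher and 2 lower. Of 4 common targets tested 0 were higher and 3 lower, and of 4 alternative receptors 0 and 2. Of the targets called lower, Ccnd1 ran the other way with Ribo-Zero, at 26.0 RPKM in CCE and 39.4 in FH. Sp5 and Cdx1 were lower in FH with that kit too. Of 10 nuclear genes 4 were higher and 0 lower, of 14 transducers 4 and 3, and of 4 R-spondin branch genes 1 and 1. The 3 largest rises were in Sostdc1, an antagonist of Wnt and Bmp signals, with 0.296 ± 0.274 RPKM in CCE and 24.6 ± 3.86 in FH (log2 difference 4.32 ± 0.21, adjusted p = 9.97e-07), in Apc2, a neural relative of Apc, with 2.26 ± 0.865 RPKM in CCE and 41.9 ± 22.8 in FH (log2 difference 3.63 ± 0.35, adjusted p = 3.46e-05), and in Apcdd1, a membrane inhibitor, with 2.93 ± 0.694 RPKM in CCE and 45.4 ± 15.2 in FH (log2 difference 3.53 ± 0.25, adjusted p = 5.38e-06). The 3 largest falls were in Cdx1, a homeobox target of Wnt and RA, with 4.27 ± 1.68 RPKM in CCE and 0.0513 ± 0.0888 in FH (log2 difference -2.27 ± 0.26, adjusted p = 1.13e-04), in Wls, which carries Wnt proteins to the cell surface, with 88.7 ± 18.1 RPKM in CCE and 22.8 ± 10.0 in FH (log2 difference -2.00 ± 0.34, adjusted p = 0.00105), and in Ctnnd1, a catenin of cell contacts, with 54.4 ± 10.6 RPKM in CCE and 17.9 ± 4.18 in FH (log2 difference -1.56 ± 0.23, adjusted p = 5.05e-04).

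The Ribo-Zero libraries gave a separate reading of both tissues with 1 library each, so that no test was possible and intervals cover counting error only. Of the 44 genes 29 had over 3 RPKM in at least 1 of the libraries, of which 9 were at least 2-fold higher and 9 at least 2-fold lower in FH. Over all such genes these shares were 12.0% and 35.5%, and over the 29 genes they were 31.0% and 31.0%. Of the 22 genes called in RiboMinus, 19 had a Ribo-Zero ratio whose interval lay on the same side of 1, 2 lay on the other side and 1 held 1. By the ratio alone, all 7 genes called higher in RiboMinus were above 1 with Ribo-Zero, and 12 of the 15 called lower (80.0%) were below 1, the others being Dkk2, Wnt3 and Wnt6. Over all genes these shares were 90.9% and 97.3%.

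Of the genes called in RiboMinus, Wnt7b, Sfrp2, Wnt5a and Fzd9 were also far higher in FH with Ribo-Zero. Wnt7b measured 0.912 RPKM in CCE and 9.16 in FH, a ratio of FH to CCE of 10.0 (95% interval 8.26 to 12.3). Sfrp2 measured 5.69 RPKM in CCE and 46.0 in FH, a ratio of 8.08 (95% interval 7.22 to 9.07), and Wnt5a 1.18 RPKM in CCE and 8.82 in FH, a ratio of 7.45 (95% interval 6.54 to 8.52). Fzd9 measured 0.910 RPKM in CCE and 5.68 in FH, a ratio of 6.24 (95% interval 4.73 to 8.38). In the other direction, Dkk1 measured 6.80 RPKM in CCE and 1.18 in FH, so that CCE was 5.78 (95% interval 4.75 to 7.08) times FH. Fzd4 measured 20.3 RPKM in CCE and 4.22 in FH, Tcf7 8.48 RPKM in CCE and 1.96 in FH, Fzd7 35.8 RPKM in CCE and 9.09 in FH and Sfrp1 54.3 RPKM in CCE and 14.1 in FH, all lower in FH as in RiboMinus. The ratio of FH to CCE was 3.62 (95% interval 3.36 to 3.91) for Fzd3, 2.27 (95% interval 2.00 to 2.58) for Fzd10 and 4.40 (95% interval 3.48 to 5.64) for Frzb, which were called higher in RiboMinus. It was 0.514 (95% interval 0.485 to 0.545) for Fzd2, 0.700 (95% interval 0.633 to 0.775) for Fzd6, 0.303 (95% interval 0.262 to 0.351) for Wnt9a, 0.517 (95% interval 0.444 to 0.601) for Wnt11, 0.380 (95% interval 0.324 to 0.446) for Wnt2b, 0.703 (95% interval 0.546 to 0.905) for Sfrp5 and 0.771 (95% interval 0.759 to 0.784) for Ctnnb1, which were called lower. Among genes not called in RiboMinus it was 3.10 (95% interval 2.85 to 3.38) for Fzd1, 1.22 (95% interval 1.13 to 1.33) for Fzd8, 1.91 (95% interval 1.59 to 2.30) for Wnt4, 0.892 (95% interval 0.735 to 1.08) for Wnt5b, 3.76 (95% interval 3.15 to 4.51) for Lef1 and 1.74 (95% interval 1.58 to 1.91) for Dkk3. It was 0.523 (95% interval 0.493 to 0.555) for Axin1, 0.771 (95% interval 0.742 to 0.802) for Lrp6 and 0.941 (95% interval 0.876 to 1.01) for Axin2. Lrp5, higher in FH with the fragmentation covariate, was at 0.573 (95% interval 0.539 to 0.608).

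**Figure D3:**
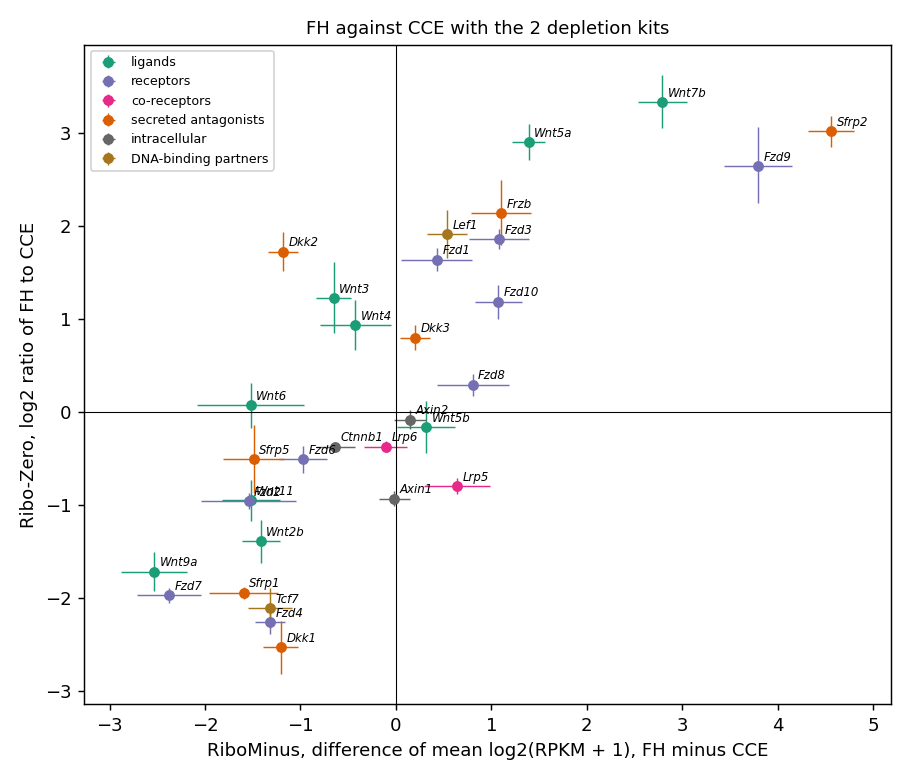
Difference of FH and CCE for the 32 tested genes, with the RiboMinus limma estimate (horizontal, bars are 1 SE) against the Ribo-Zero log2 ratio (vertical, bars are 95% counting intervals), coloured by family. Dkk2 and Wnt3 lie in the upper left, called lower in FH with RiboMinus and above 0 with Ribo-Zero. Wnt6, called lower and just above 0, and Wnt4, which was not called, also lie there, and Lrp5, Wnt5b and Axin2, none of them called, lie in the lower right.

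Dkk2 and Wnt3 ran in opposite directions with the kits. Dkk2 measured 2.19 RPKM in CCE and 7.21 in FH with Ribo-Zero, a ratio of 3.29 (95% interval 2.85 to 3.83), against 26.4 and 11.1 RPKM with RiboMinus. Wnt3 measured 0.901 RPKM in CCE and 2.10 in FH, a ratio of 2.33 (95% interval 1.80 to 3.05). The Ribo-Zero value was 0.0810 of the hydrolysed RiboMinus mean in CCE and 0.621 in FH for Dkk2, and 0.148 and 0.557 for Wnt3. Wnt6 measured 4.00 RPKM in CCE and 4.19 in FH, at 0.273 of the RiboMinus value in CCE, and its ratio of 1.05 (95% interval 0.887 to 1.24) held 1. Wnt4 and Wnt11 in CCE were at 0.209 and 0.286 of the RiboMinus values, and Lrp6 and Axin1 at 3.24 and 2.82. Of 36 genes with at least 20 tags in each tissue, 14 (38.9%) were at less than 0.5 of the RiboMinus value in CCE and 7 (19.4%) in FH. Over 9595 genes with as many tags those shares were 21.4% and 31.5%. Ribo-Zero started from a separate isolate, whose markers differed in both tissues as given above. Facility, sequencing instrument, read length, mismatches allowed in alignment and hydrolysis time differed as well. Isolate, kit and these steps cannot be told apart in these differences.

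For the rare ligands the deeper Ribo-Zero libraries gave further tags. Wnt8b had 0 tags in CCE and 51 in FH, so that FH was at least 9.69-fold higher against a floor of 3 tags per library, and the lower limit of the exact 95% interval, which also covers the counting error of the 51 tags, was 7.60. Wnt8a had 21 tags in CCE and 0 in FH, so that FH was at least 12.3-fold lower against the same floor, with a lower limit of 9.14. Wnt1 had 30 tags in CCE and 5 in FH, a ratio of 0.0950 (95% interval 0.0288 to 0.247), while the RiboMinus preparations had 1 and 7. Wnt3a, Wnt9b and Wnt16 were higher in FH with both kits, at Ribo-Zero ratios of 4.96 (95% interval 2.57 to 10.7), 3.58 (95% interval 1.60 to 9.43) and 4.98 (95% interval 2.91 to 9.15). Wnt10a and Wnt10b, which overlapped with RiboMinus, had ratios of 5.56 (95% interval 2.69 to 13.3) and 5.20 (95% interval 3.14 to 9.15), and Wnt7a 3.00 (95% interval 2.30 to 3.96). Wnt2 ran to CCE, at 0.329 (95% interval 0.260 to 0.414).

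Ribosomal depletion keeps unspliced RNA, so that introns give a second reading of the genes that have them. Tags in introns outside every exon were fitted over 10521 genes, and of the 44 genes 23 could be tested, of which 10 were higher and 1 lower in FH. The higher genes were Wnt3, Wnt5a, Wnt5b, Wnt7a, Wnt7b, Fzd3, Lrp6, Sfrp2, Axin2 and Lef1. The filter asked for a mean of 10 intron tags in CCE or FH. Wnt5a, Wnt7a, Wnt7b, Fzd3 and Sfrp2 passed it only through FH, so that a lower call was hardly possible for them. Over all genes tested 37.5% were higher and 5.08% lower, and over the 23 genes 43.5% and 4.35%. The share of tags in protein-coding exons was 44.4 to 61.3% in FH RiboMinus libraries and 65.0 to 72.4% in CCE ones, and its part in the intron and exon differences was not tested. Wnt5a introns measured 0.162, 0.208, 0.0806 and 0.0956 intron RPKM in CCE and 0.767, 1.04 and 1.12 in FH. FH was above CCE in all preparations, a difference of 2.20 ± 0.31 (SE, limma adjusted p = 1.46e-05) on the log2(intron RPKM + 0.1) scale. Sfrp2 introns held 3 tags in CCE and 58 in FH, at 3.15 ± 0.31 (SE, limma adjusted p = 3.84e-07), Wnt7b introns 29 and 187 tags, at 1.87 ± 0.24 (SE, limma adjusted p = 4.93e-06), and Fzd3 introns 38 and 233 tags, at 1.72 ± 0.25 (SE, limma adjusted p = 2.13e-05). Wnt9a was the gene called lower, with 0.345, 0.730, 0.559 and 0.752 intron RPKM in CCE and 0.182, 0.220 and 0.218 in FH, at -1.14 ± 0.31 (SE, limma adjusted p = 0.00647), and its Ribo-Zero intron ratio of FH to CCE was 0.819 (95% interval 0.654 to 1.03), which held 1. The Ribo-Zero intron ratio was 12.4 (95% interval 8.56 to 18.7) for Wnt5a, 15.8 (95% interval 10.9 to 23.7) for Wnt7b, 4.27 (95% interval 2.98 to 6.31) for Sfrp2 and 5.16 (95% interval 4.50 to 5.95) for Fzd3.

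**Figure D4:**
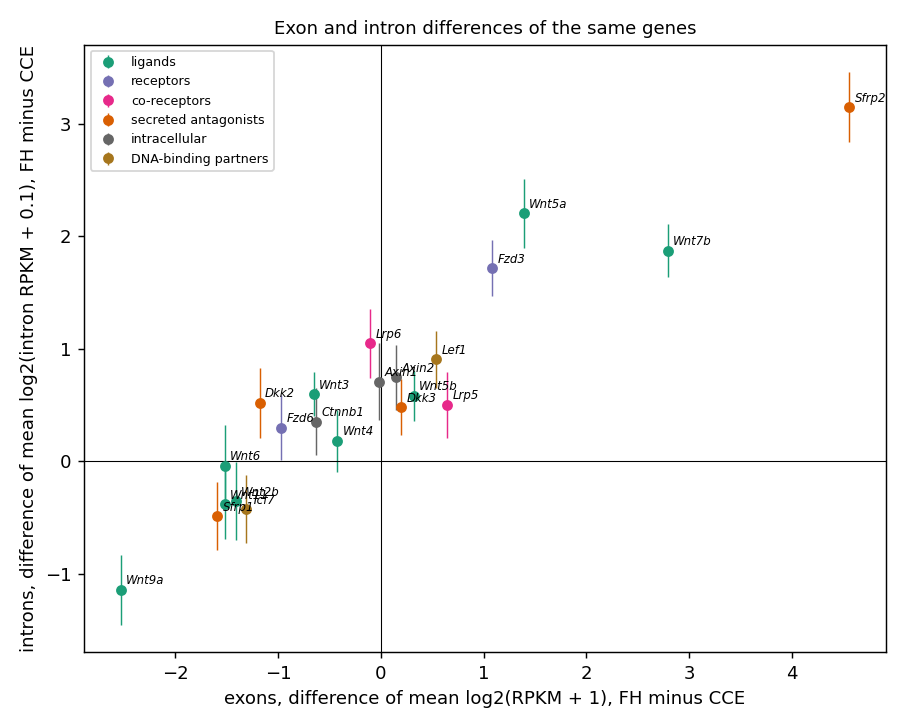
Exon difference (horizontal) against intron difference (vertical) of FH minus CCE for the 22 genes tested in both, coloured by family, with bars of 1 SE on the intron value. Wnt5a, Wnt7b, Fzd3 and Sfrp2 are high in both and Wnt9a low in both. Wnt3 is below 0 on the horizontal and above 0 on the vertical axis, as are Wnt4, Fzd6, Lrp6, Dkk2, Axin1 and Ctnnb1. Of these genes only Wnt3 was called in both.

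Of the 22 genes tested in both readings, 6 were called in both, 8 in exons alone, 4 in introns alone and 4 in neither. These are 27.3%, 36.4%, 18.2% and 18.2% of the 22 genes, against 23.4%, 30.6%, 14.8% and 31.1% of the 8077 genes tested in both. Of the 6 called in both, 5 had the same direction, and Wnt3 was lower in exons and higher in introns, at 0.60 ± 0.20 (SE, limma adjusted p = 0.0214) on 44 and 71 intron tags. Over all genes, 1778 of the 1894 called in both had the same direction. The 4 called in introns alone were Wnt5b, Lrp6, Axin2 and Lef1, all higher in FH. Lrp6 introns measured 0.124, 0.134, 0.272 and 0.247 intron RPKM in CCE and 0.349, 0.591 and 0.569 in FH, a difference of 1.05 ± 0.31 (SE, limma adjusted p = 0.0114), beside an exon difference of -0.10. Dkk2 introns had 363 tags in CCE and 420 in FH and were not called, at 0.52 ± 0.31 (SE, limma adjusted p = 0.187), and their Ribo-Zero ratio was 15.7 (95% interval 13.0 to 19.1).

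Many of these genes differed between sheared and hydrolysed preparations of the same tissue. Of the 36 genes with at least 20 tags in each tissue, 27 were higher in sheared than in hydrolysed preparations of both tissues, 15 of them by at least 1.5 times in both, and 5 were lower in both. These are 75.0%, 41.7% and 13.9% of the 36 genes, against 38.8%, 12.1% and 44.6% of 9595 genes tested with as many tags. The ratio of sheared to hydrolysed means was 3.09 in CCE and 3.58 in FH for Wnt6, 2.67 in CCE and 2.76 in FH for Fzd2 and 2.14 in CCE and 2.00 in FH for Fzd8. It was 0.515 in CCE and 0.499 in FH for Fzd3, 0.769 in CCE and 0.596 in FH for Fzd6 and 0.623 in CCE and 0.664 in FH for Lrp6. The G and C share of the exons was 61.4% in Wnt6 and 56.6% in Fzd2, and 43.7% in Fzd3, 46.0% in Fzd6 and 46.5% in Lrp6. Across the 36 genes the log2 ratio went with this share at Pearson's r = 0.748 in CCE and 0.687 in FH. This is a description across genes that share their libraries, and over all genes tested with as many tags r was 0.702 (9595 genes) and 0.634 (9586 genes). Of the preparations 2 of 4 were sheared in CCE and 1 of 3 in FH. With fragmentation as a covariate 12 of the 44 genes were higher and 15 lower in FH, the 5 added ones being Wnt5b, Fzd1, Fzd8, Lrp5 and Lef1. Of the 32 genes tested that is 37.5% and 46.9%, against 25.5% and 49.0% of all genes tested in the same fit.

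**Figure D5:**
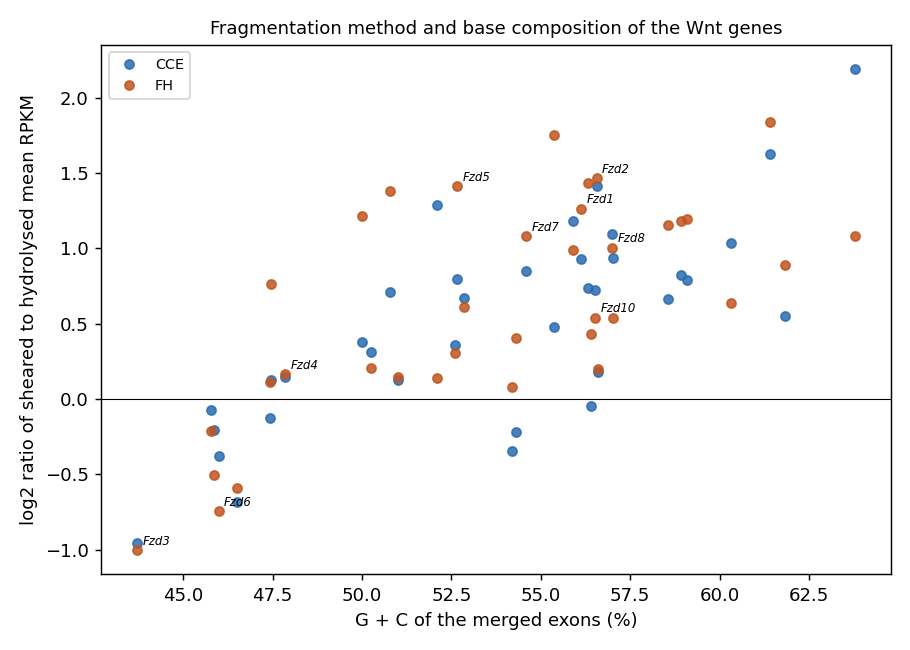
G and C share of the merged exons (horizontal, in percent) against the log2 ratio of sheared to hydrolysed mean RPKM (vertical) for the 36 genes with at least 20 tags in each tissue, CCE in blue and FH in orange, with the Frizzleds named at their FH point. Fzd3 and Fzd6, with the least G and C of the Frizzleds, lie below 0, and Fzd1, Fzd2, Fzd7 and Fzd8 lie above it.

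Locations were compared in the same way. Over the same 36 genes the ratio of Vienna-IMP to Nijmegen ran from 0.716 to 1.58 in CCE with a median of 0.975, and from 0.545 to 1.47 in FH with a median of 0.992. The extremes were Sfrp2 and Frzb in CCE, on 73 and 41 tags, and Fzd5 and Dkk1 in FH, on 55 and 64 tags.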

How the data were processed

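RNA of CCE cells and FH was measured in 14 RiboMinus and 2 Ribo-Zero libraries. The authors aligned tags to mm9 with Bowtie, as the submitters' processing notes name them, and deposited each uniquely placed tag as 1 line. The score column deposited by the authors was not used as a measurement, and the deposited files hold no counts per gene. Tags, which carry no strand, were counted here by their midpoint in the merged exons of GENCODE M1. Tags on the mitochondrial chromosome, which the RiboMinus files do not list, were left out of totals. The other samples of the series were not analysed here. RPKM used all remaining tags of a preparation with both locations summed.

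FH was compared with CCE in limma 3.58.1 under R 4.3.3 with a trended variance on log2(RPKM + 1), for genes that averaged more than 3 RPKM in CCE or FH, with Benjamini-Hochberg adjustment over all genes tested. Introns outside every exon, of at least 1000 bases and a mean of 10 tags in at least 1 tissue, were fitted on log2(intron RPKM + 0.1). Genes below the filter were given an exact permutation test, two-sided. Ribo-Zero ratios have exact 95% intervals that cover counting error only, as tags at one position may be copies of one molecule, and 0 tags were given a floor of 3. The fit was tested on simulated data. Python 3.11.15, numpy 2.4.6, pandas 2.3.3 and scipy 1.17.1 were used.

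The genes and lists were chosen with earlier results of these data known. Per-preparation values are given for genes that were called or over 3 RPKM, and for the 3 highest of the others in a family. Pathway genes are named if among the 3 largest changes in a direction, or where a limit of a count is stated. Alternatives were other pseudocounts, filters, scalings, weights, covariates, feature sets, locations and leaving out each preparation.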

Additional observations from a re-analysis of the deposited data

Results flagged for a closer look

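The direction of Dkk2 and Wnt3 differed between the kits, as every FH preparation lay below every CCE preparation with RiboMinus and the Ribo-Zero libraries ran the other way. The Ribo-Zero ratio of FH to CCE was 3.29 for Dkk2 and 2.33 for Wnt3. The difference between the kits was not tested, since Ribo-Zero has 1 library per tissue. The kits also differ in RNA isolate, facility, instrument and read length. Among the 36 genes examined for a CCE preparation that stands apart from the other 3, the lowest Fzd6 value, 7.79 RPKM in CCE2 sheared, and the lowest Tcf7 value, 7.08 RPKM in CCE1 sheared, stood apart. Chance alone flags about 1 group in 20 of this kind. Both were sheared preparations.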

How the results depend on the processing

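Of the 22 genes called, 13 kept their call and direction under all 23 alternatives, 9 lost the call in at least 1 and 0 reversed. The number of the 44 genes called higher in FH was 7 and became 11 with no filter on low RPKM and with scaling by exon tags, and 12 with fragmentation as a covariate, while it was 5 with Nijmegen libraries alone. Lower genes numbered 15, and 12 with Nijmegen libraries, 12 with no filter, 11 with coding exons, 11 with median-of-ratios scaling and 10 with scaling by exon tags. Leaving out 1 preparation gave 6 to 9 higher and 11 to 15 lower genes. Over all genes, 2056 were higher and 3582 lower. No filter gave 3356 higher and 3358 lower of 22380 genes. Scaling by exon tags gave 2840 and 2138 of 10456, and median-of-ratios scaling 2565 and 2542 of 10444. Nijmegen libraries gave 1581 and 2448 of 10323, with 31 of the 44 genes tested. Coding exons gave 2135 and 3327 of 11353, with 38 of the 44 genes tested. The fragmentation covariate gave 2624 and 5055 of 10306. Leaving out 1 preparation gave 1791 to 2048 higher and 2930 to 3744 lower. The pathway genes lower in FH fell from 13 to 7 with either other scaling and to 8 with Nijmegen libraries, numbered 19 with the fragmentation covariate and with hydrolysed preparations alone and 17 with repeated positions counted once, and ran from 7 to 14 without 1 preparation, the lowest without FH1 hydrolysed. Of the introns, 3 genes in place of 1 were lower in FH with hydrolysed preparations alone. No share over all genes is given for that fit, so that this count shows nothing particular to the 44 genes.

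The replicate block by RNA number called 7 of the 44 genes higher and 14 lower, and with fragmentation as a covariate the replicate block gave 12 and 15. Of all 10306 genes tested the replicate block called 1927 higher and 3177 lower, and 2552 and 4949 with the covariate. The numbers were not taken to pair the tissues, since the labels give no shared source. The log2 ratios of number 1 to 2 in hydrolysed CCE and FH correlated at r = -0.137 across 9304 genes, which cannot settle it, as the hydrolysed numbers may be crossed at one location (r = -0.644 in CCE and -0.496 in FH between locations). Crossing them gave 7 higher and 14 lower of the 44 genes, and 1950 higher and 3313 lower of all 10315 genes tested.

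Signs turned in genes that were not called. Lrp6 was 0.10 with median-of-ratios scaling, 0.18 with exon tags and 0.014 with coding exons, and ran from -0.21 to 0.049 without 1 preparation. Axin1 was 0.21 and 0.30 with the other scalings, 0.011 with the fragmentation covariate, 0.0038 with hydrolysed preparations and 0.047 with Nijmegen libraries, and ran from -0.079 to 0.028 without 1 preparation. Wnt5b ran from -0.011 to 0.50 without 1 preparation, and Dkk3 was -0.018 with coding exons. The cause was not tested. Of the 12 genes below the filter several rest on fewer than 10 tags in a tissue, so that counting error is large there.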
